A study of Solanum lycopersicum with 14 samples.

Results

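The genes described here are 9 loci at the start of the ethylene response of tomato (Solanum lycopersicum). They comprise 6 ethylene receptors (ETR1, ETR2, NR, ETR4, ETR5 and ETR6), the receptor-associated protein GR (Green-ripe), the kinase CTR1 and the membrane protein EIN2. NR stands for Never-ripe and is also called ETR3. ETR7, a further receptor locus, is not among the 9 and is given with the other pathway genes. They were chosen by locus, without regard to their values, and were matched by the part of the identifier before the dot among the 26397 genes with read counts. All 9 were found, and 8 of them had at least 1 read in each of the 14 libraries, GR being the exception.

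Ethylene is the gaseous hormone that drives ripening in tomato. Its receptors act as brakes: without ethylene they keep the kinase CTR1 active, CTR1 holds back EIN2, and binding of the hormone releases EIN2, which in Arabidopsis leads to stabilised EIN3-like transcription factors. Because the receptors repress the response, a fruit with more receptor needs more hormone to respond, and the dominant tomato mutant Never-ripe, whose NR receptor no longer binds ethylene, fails to ripen.

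The study sequenced fruit RNA of the late-maturing cultivar HG6-61 and the early-maturing cultivar AC (Ailsa Craig), neither of them treated, at weekly stages of which the earliest was 7 and the latest 49 days after flowering (DAF). Each cultivar had 1 library per stage, made from mixed fruit of 5 plants, so 7 libraries stood for each cultivar and 2 for each stage. The labels call the fruit of 7 to 35 DAF mature green, that of 42 DAF breaker and that of 49 DAF ripening. The study counted the cultivars as biological replicates of a stage, and p-values over stages therefore measure the spread between the cultivars' profiles.

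The libraries held between 1461817 (HG6-61 at 35 DAF) and 6274456 (HG6-61 at 21 DAF) reads on genes. By the study's read overview, HG6-61 at 35 DAF also had the lowest share of uniquely mapped reads in coding sequence. Its shares in intergenic and 3' untranslated regions were the highest. What this did to the values of that library was not tested. The stage names were set against the summed RPKM (reads per kilobase of gene, scaled to library size) of 6 ripening genes, PSY1, E4, E8, RIN, ACO1 and PG2a. At 35 DAF this sum was 555 in HG6-61 and 10522 in AC, and at 42 DAF it was 7519 in HG6-61 and 4185 in AC. AC fruit labelled mature green at 35 DAF thus went against its label, and HG6-61 reached a comparable sum 7 days later. Transcripts of 10 seed storage loci (cruciferins and oleosins), which pericarp, the tissue named in the study's methods, should lack, summed to 11409 RPKM in HG6-61 and 14467 in AC at 28 DAF, against 8.91 in HG6-61 and 18.9 in AC at 7 DAF, and their part in the values below was not tested. The labels name the tissue only as fruit, and whether seeds were taken was not tested. In bulk tissue fewer cells of a type and less RNA per cell cannot be told apart.

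**Figure D1:**
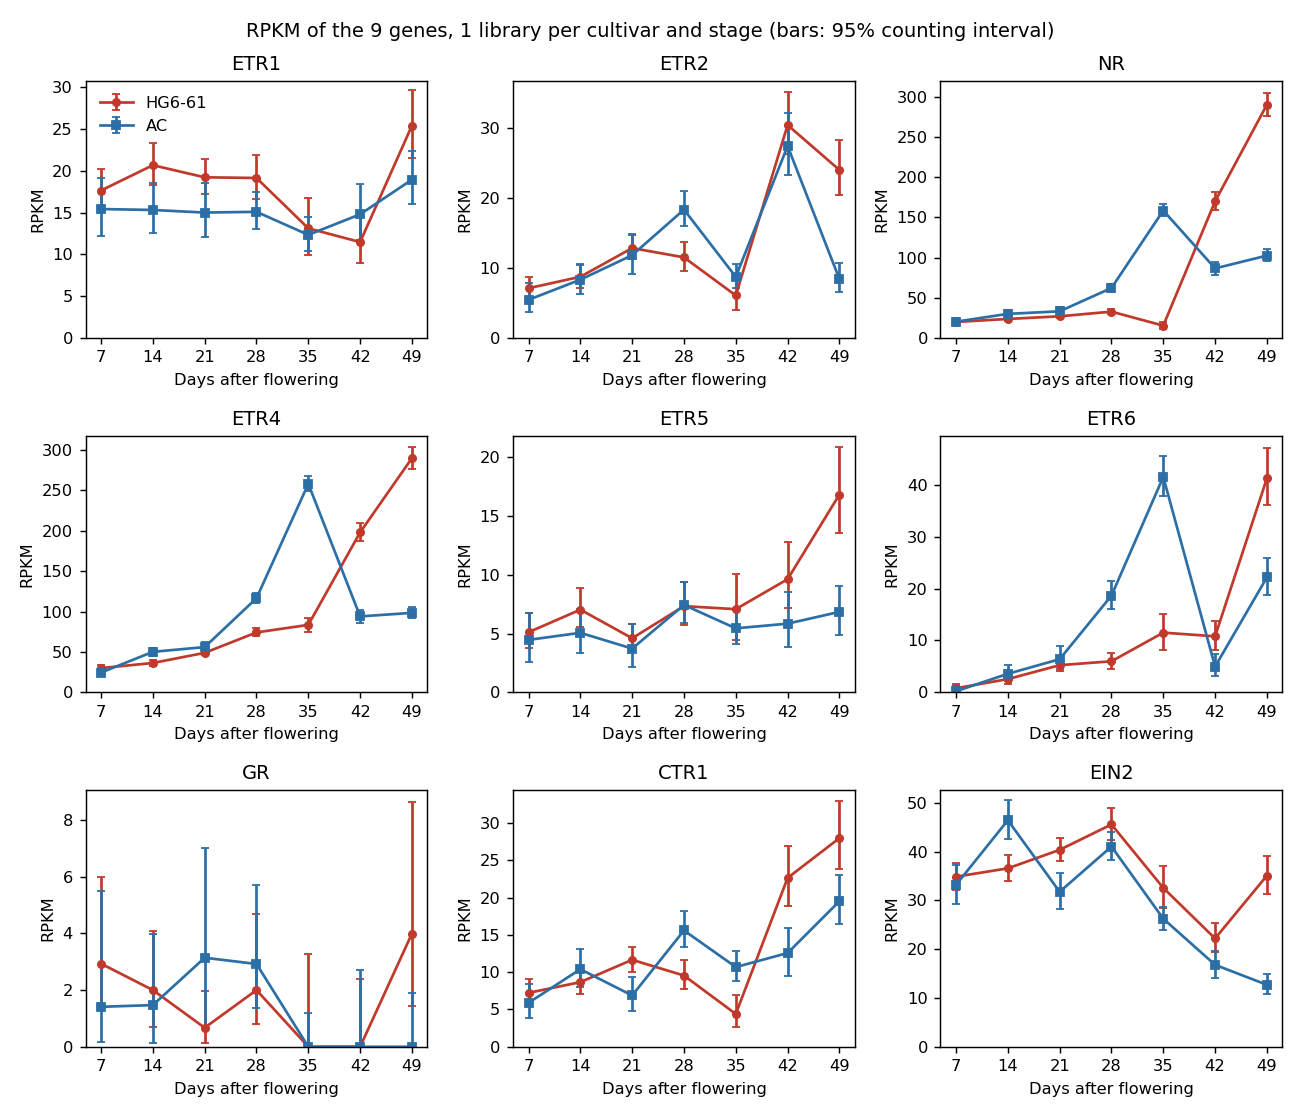
RPKM of each of the 9 genes (vertical axes, linear and different for each gene) by days after flowering, with HG6-61 as red circles and AC as blue squares. Each point is 1 library and each bar its exact 95% Poisson interval, which covers counting error only. The peaks of NR, ETR4 and ETR6 lay at 49 DAF for HG6-61 and at 35 DAF for AC, while the highest value of ETR1 was 2.22 times its lowest in HG6-61 and 1.54 times in AC.

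The main pattern was that the receptor NR and the receptors ETR4 and ETR6 gained transcripts over the later stages, earlier in AC than in HG6-61, while ETR1 and EIN2 were called at no stage. Against 7 DAF, edgeR's quasi-likelihood test with Benjamini-Hochberg adjustment called 5 of the 8 genes it could test at 49 DAF, NR, ETR4, ETR5, ETR6 and CTR1, all of them higher. Of all 18082 genes tested, 12.7% were called higher in that comparison. GR had too few reads for the test.

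Of subfamily I, whose members keep a complete histidine kinase domain, ETR1 varied least (Solyc12g011330.2, chromosome 12, closest to Arabidopsis ETR1). Its RPKM had a minimum of 11.5, a median of 19.1 and a maximum of 25.4 in HG6-61, against a minimum of 12.3, a median of 15.1 and a maximum of 18.9 in AC. Both cultivars had their highest value at 49 DAF, and at 42 DAF HG6-61 was at its own minimum. The coefficient of variation over the 7 stages was 25.9% in HG6-61 and 12.7% in AC. ETR1 did not pass the test at any stage, with a log2 fold change of 0.69 ± 0.28 (SE) at 49 DAF (adjusted p = 0.0612 in edgeR's quasi-likelihood test).

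ETR2 (Solyc07g056580.2, chromosome 7), the other receptor closest to Arabidopsis ETR1, peaked at 42 DAF in both cultivars. In HG6-61 its RPKM, stage by stage from 7 DAF to 49 DAF, was 7.10, 8.73, 12.8, 11.5, 6.06, 30.4 and 24.0. In AC the series read 5.44, 8.32, 11.8, 18.3, 8.72, 27.4 and 8.40 RPKM. Both cultivars thus dipped at 35 DAF before the peak, and at 49 DAF HG6-61 stayed high where AC was back near its level of 14 DAF. ETR2 rose at 42 DAF against 7 DAF by 2.48 ± 0.45 on the log2 scale (adjusted p = 0.00134 in edgeR's quasi-likelihood test), a call that failed without either 7 DAF library. At 49 DAF the change was 1.59 ± 0.45 and missed the threshold of 0.01 (adjusted p = 0.0137 in the same test).

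NR (Solyc09g075440.2, chromosome 9, closest to Arabidopsis ERS1) is the receptor of the Never-ripe mutant. In HG6-61 its RPKM was 19.8, 23.5, 26.8, 32.7, 15.2, 170 and 290.3 from 7 to 49 DAF. In AC it was 20.2, 29.9, 33.0, 62.1, 158.6, 86.5 and 102.4. The cultivars ran close together up to 21 DAF, and AC then reached its peak at 35 DAF, the stage at which HG6-61 had its minimum. That HG6-61 library was the smallest and had the read distribution named above, whose part in this minimum was not tested. At 42 DAF the level of NR was 11.3 times that of 35 DAF in HG6-61 (95% counting interval 8.77 to 14.9) and 0.545 times in AC (0.490 to 0.605). At 49 against 7 DAF the 2 cultivars together gave a log2 fold change of 3.61 ± 0.89 (adjusted p = 0.00692 in edgeR's quasi-likelihood test), and without the HG6-61 library of 49 DAF it was 2.48 and no longer passed (adjusted p = 0.0544). It also failed without either 7 DAF or either 21 DAF library, with adjusted p up to 0.0595. The opposite values at 35 DAF left NR uncalled there, at 2.4 ± 0.86 (adjusted p = 0.0474), and without the AC library of 35 DAF its log2 fold change was 0.03.

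Of subfamily II, whose histidine kinase domain has diverged, ETR4 was the most abundant receptor (Solyc06g053710.2, chromosome 6, closest to Arabidopsis EIN4). In HG6-61 its RPKM was 30.0, 36.3, 48.9, 74.2, 83.5, 198.0 and 289.9 from 7 to 49 DAF, higher at each stage than at the one before. AC had 24.5, 50.1, 56.0, 116.5, 258.1, 94.0 and 98.4 RPKM, with its peak at 35 DAF. Unlike NR, ETR4 did not dip in HG6-61 at 35 DAF, where its level was 1.13 times that of 28 DAF (95% counting interval 0.995 to 1.27). ETR4 rose against 7 DAF at 35 DAF by 3.02 ± 0.65, at 42 DAF by 2.69 ± 0.63 and at 49 DAF by 3.08 ± 0.64 on the log2 scale (adjusted p = 0.00451, 0.00576 and 0.00288 in edgeR's quasi-likelihood test). It lost these 3 calls when either library of 7 DAF was left out, the call at 35 DAF without the AC library of that stage, and the call at 42 or 49 DAF without the HG6-61 library of that stage.

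ETR5 (Solyc11g006180.1, chromosome 11, also closest to Arabidopsis EIN4) was the receptor with the lowest mean RPKM. It had a minimum of 4.60, a median of 7.07 and a maximum of 16.8 in HG6-61, against 3.72, 5.44 and 7.43 in AC. The highest HG6-61 library was that of 49 DAF, and the lowest library of each cultivar was that of 21 DAF. ETR5 rose at 49 against 7 DAF by 1.52 ± 0.38 on the log2 scale (adjusted p = 0.00744 in edgeR's quasi-likelihood test), a call that was lost without any of 9 single libraries, with adjusted p up to 0.0759.

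ETR6 (Solyc09g089610.2, chromosome 9, closest to Arabidopsis ETR2) had the widest range. In HG6-61 its RPKM was 0.790, 2.55, 5.23, 5.98, 11.5, 10.8 and 41.2 from 7 to 49 DAF, and in AC it was 0.210, 3.57, 6.38, 18.6, 41.5, 4.96 and 22.2. The libraries of 7 DAF held 8 reads of ETR6 in HG6-61 and 1 read in AC. AC went through a peak at 35 DAF and a trough at 42 DAF, where its level was 0.120 times that of 35 DAF (95% counting interval 0.0758 to 0.180). HG6-61 showed no such trough and reached at 49 DAF the level AC had at 35 DAF. ETR6 rose against 7 DAF at 28, 35, 42 and 49 DAF, by 4.25 ± 0.87, 5.70 ± 0.89, 3.96 ± 0.89 and 5.96 ± 0.88 on the log2 scale (adjusted p = 0.00511, 0.000801, 0.00441 and 0.000398 in edgeR's quasi-likelihood test). The sizes of these changes rest on the 9 reads at 7 DAF, and the gene left the table under a filter of 10 reads in every library. Only the call at 49 DAF stood whichever single library was left out. The call at 28 DAF failed without the AC library of 28 DAF, that at 42 DAF without the HG6-61 library of 42 DAF, both of these without either 7 DAF library, and that at 35 DAF without the AC library of 7 DAF.

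GR (Solyc01g104340.1, chromosome 1), the tomato relative of Arabidopsis RTE1, acts on the receptors, and its ectopic expression in the Green-ripe mutant blocks ripening. It was close to the detection limit, with 47 reads in all 14 libraries together. From 7 to 49 DAF HG6-61 had 9, 6, 3, 6, 0, 0 and 6 reads, and AC had 2, 2, 4, 9, 0, 0 and 0. No read was counted in the libraries of 35 and 42 DAF in either cultivar, which allows up to 2.66 RPKM (3 reads) in HG6-61 and 0.974 RPKM in AC at 35 DAF, and 1.95 RPKM in HG6-61 and 2.19 RPKM in AC at 42 DAF. The highest value of any library was 3.99 RPKM, in HG6-61 at 49 DAF. The 0 reads of AC at 35 DAF against 9 at 28 DAF gave a ratio of 0 (95% counting interval 0 to 0.492), and those of HG6-61 at 42 DAF against 9 at 7 DAF a ratio of 0 (0 to 0.939). GR was thus lower beyond counting error against these references. In HG6-61 it was also lower at 21 DAF, with 3 reads, than at 7 DAF, at 0.212 times (0.037 to 0.851). For HG6-61 at 49 over 42 DAF, with 6 reads against 0, the lower limit of the ratio lay above 1. Against AC at 7 DAF, with 2 reads, the interval of AC at 35 DAF reached 2.28, so the result for AC at 35 DAF depends on the reference. For the other libraries without a read, the interval of the ratio to 7 DAF of the same cultivar reached past 1, up to 5.13 for AC at 42 DAF. No difference from 7 DAF was detectable for them at this depth, and AC at 42 and 49 DAF was not set against 28 DAF.

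CTR1 (Solyc10g083610.1, chromosome 10, closest to Arabidopsis CTR1) is the Raf-like kinase that the receptors hold at the endoplasmic reticulum. Its RPKM was 7.23, 8.67, 11.7, 9.55, 4.40, 22.6 and 28.0 from 7 to 49 DAF in HG6-61, and 5.90, 10.4, 6.88, 15.6, 10.7, 12.6 and 19.5 in AC. Each cultivar had its highest value at 49 DAF. In HG6-61 the library of 35 DAF stood at 0.459 times that of 28 DAF (95% counting interval 0.261 to 0.763) and that of 42 DAF at 5.16 times that of 35 DAF (3.14 to 8.99), the same dip and gain as in NR and ETR2 of this cultivar. CTR1 rose at 49 against 7 DAF by 2.11 ± 0.49 on the log2 scale (adjusted p = 0.0053 in edgeR's quasi-likelihood test). The call was lost without either 7 DAF library or either 49 DAF library, with log2 fold changes between 1.93 and 2.42 over all libraries left out.

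EIN2 (Solyc09g007870.2, chromosome 9, closest to Arabidopsis EIN2) carries the signal from the endoplasmic reticulum towards the nucleus. HG6-61 had 34.9, 36.6, 40.4, 45.6, 32.6, 22.2 and 35.1 RPKM from 7 to 49 DAF, and AC had 33.2, 46.5, 31.8, 41.1, 26.3, 16.8 and 12.7. The highest value was 2.05 times the lowest in HG6-61 and 3.65 times in AC (95% counting interval 3.06 to 4.41), a wider range in AC than those of ETR5 (2.00 times) and CTR1 (3.31 times). The cultivars were alike at 7 DAF, and at 49 DAF HG6-61 was back at its first level while AC was at its minimum. Within HG6-61 the level at 49 DAF was 1.01 times that at 7 DAF (95% counting interval 0.878 to 1.15), against 0.383 times (0.312 to 0.468) within AC. Over both cultivars EIN2 had a log2 fold change of -0.32 ± 0.35 at 49 DAF and passed the test at no stage (adjusted p = 0.477 in edgeR's quasi-likelihood test), and without the AC library of 49 DAF the sign turned, to 0.29.

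Since RPKM is per length, the receptors could also be compared with each other within a library. The summed RPKM of the 6 receptors, without ETR7, in HG6-61 was 80.5, 98.8, 117.6, 150.8, 136.4, 430.3 and 687.7 from 7 to 49 DAF. In AC it was 70.1, 112.3, 125.9, 238.1, 484.7, 233.5 and 257.1. In HG6-61 the sum was highest in the last library, whereas the ripening sum had peaked at 42 DAF, and in AC both sums peaked at 35 DAF. Single ripening genes departed from their sum: in HG6-61 E4, E8, RIN and PG2a were highest at 42 DAF but PSY1 and ACO1 at 49 DAF, and in AC RIN was highest at 42 DAF and ACO1 at 49 DAF.

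**Figure D2:**
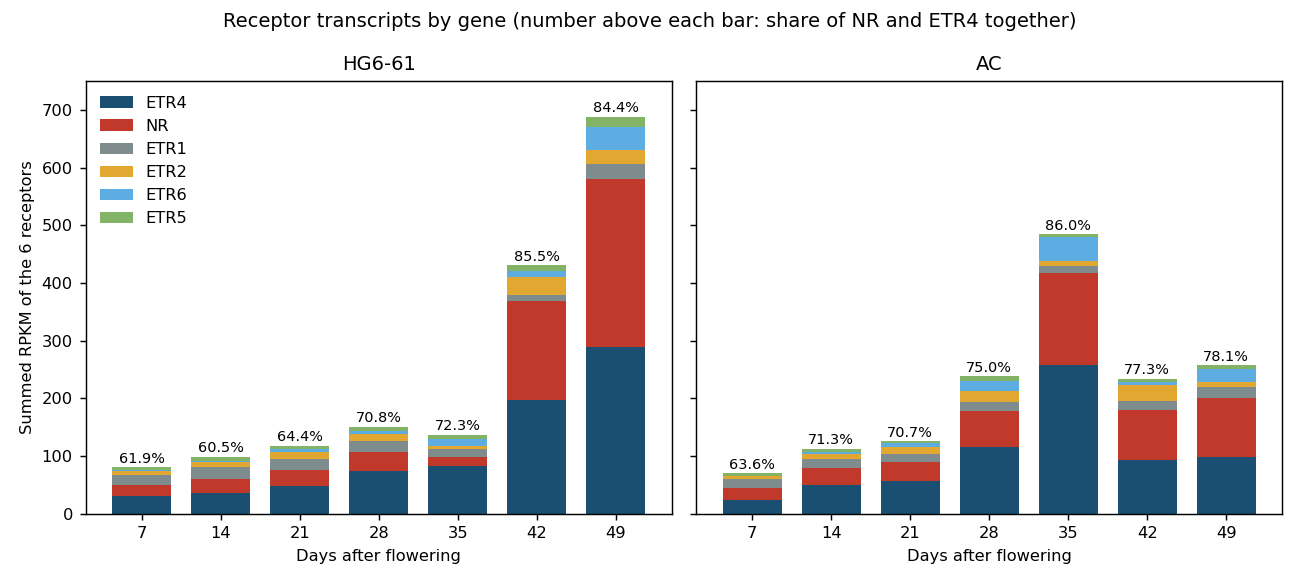
Summed RPKM of the 6 receptors by days after flowering in HG6-61 (left) and AC (right), 1 library a bar, with each colour a receptor. The number above a bar is the share of NR and ETR4 together, which was lowest at 60.5% in HG6-61 at 14 DAF and highest at 86.0% in AC at 35 DAF.

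NR and ETR4 together made up 60.5% to 85.5% of the receptor sum in HG6-61 and 63.6% to 86.0% in AC, with the lowest shares at 14 DAF in HG6-61 and at 7 DAF in AC. ETR4 was the first of the receptors in 12 of the 14 libraries, and NR in both libraries of 49 DAF, where the RPKM of NR and ETR4 was 290.3 and 289.9 in HG6-61 and 102.4 and 98.4 in AC, with overlapping counting intervals in each cultivar. ETR1 contributed 21.9% of the sum in HG6-61 and 22.0% in AC at 7 DAF. Its share was smallest at 42 DAF in HG6-61, at 2.67%, and at 35 DAF in AC, at 2.54%, the stages at which its own level was also lowest. At these stages the level of ETR1 was 0.652 times that of 7 DAF in HG6-61 (95% counting interval 0.489 to 0.860) and 0.802 times in AC (0.608 to 1.07). These ratios carry no TMM factor (edgeR's correction for composition). Over both cultivars the edgeR log2 fold change of ETR1 against 7 DAF was -0.03 at 42 DAF and -0.01 at 35 DAF. ETR6 made up 0.982% in HG6-61 and 0.299% in AC at 7 DAF, and at most 8.43% in HG6-61 at 35 DAF and 8.61% in AC at 49 DAF.

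The ratio of receptor transcripts to those of the downstream components moved too, while the proteins were not measured. The summed receptor RPKM was 19.6 times that of EIN2 at 49 DAF and 2.31 times at 7 DAF in HG6-61, and 20.2 times at 49 DAF and 2.11 times at 7 DAF in AC. Relative to CTR1 the sum was 24.6 times at 49 DAF and 11.1 times at 7 DAF in HG6-61, and 13.2 times at 49 DAF and 11.9 times at 7 DAF in AC. The highest such ratio to CTR1 was found at 35 DAF in both cultivars, at 31.0 in HG6-61 and 45.3 in AC.

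Over all 14 libraries the mean RPKM ordered the genes as ETR4 (104.2 ± 84.7, SD), NR (76.5 ± 80.2), EIN2 (32.5 ± 10.1), ETR1 (16.7 ± 3.7), ETR2 (13.5 ± 8.2), ETR6 (12.5 ± 13.8), CTR1 (12.4 ± 6.8), ETR5 (6.88 ± 3.25) and GR (1.47 ± 1.4). This order did not hold in every library: ETR4 exceeded NR in 12 of the 14, ETR1 exceeded ETR2 in 11, ETR2 exceeded ETR6 in 9 and ETR6 exceeded CTR1 in 5. NR exceeded EIN2 in 7 of the 14 and had the lower median (32.8 RPKM against 34.0), so its place rests on the late libraries. The ranges of mean ± SD overlapped for ETR4 and NR, NR and EIN2, ETR1 and ETR2, and ETR2, ETR6 and CTR1. These SDs hold the change over stages and leave out that the genes share libraries, so they decide no difference, and differences between genes were not tested. ETR4 lay at the 94.8th percentile of the mean RPKM of all listed genes and ETR5 at the 51.6th.

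Counted by stage, none of the 8 tested genes was called against 7 DAF at 14 DAF, where 0.702% of all tested genes were called, or at 21 DAF, where 5.19% were. At an unadjusted p under 0.05 edgeR's quasi-likelihood test had 1 gene at each of these stages, ETR6, and DESeq2 called 0 at 14 DAF and 1 at 21 DAF, again ETR6. At 28 DAF 1 gene was called higher (ETR6), against 7.08% of all genes. At 35 DAF there were 2 (ETR4 and ETR6), against 9.78% of all genes, a share that the scaling affects: 47.0% of all calls at 35 DAF were higher with TMM factors (edgeR's correction for composition) and 33.4% with library totals alone, where the 2 calls stood.

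At 42 DAF 3 genes were called higher (ETR2, ETR4 and ETR6), against 12.1% of all genes. None of the 8 was called lower at 28, 35, 42 or 49 DAF, where 6.14%, 11%, 15.6% and 16.1% of all tested genes were. The median log2 fold change of the 8 genes at 49 DAF was 1.85, that of the 6 receptors 2.34, and that of all tested genes -0.18. In the joint test of all stages, edgeR called 3 of the 8 genes (ETR2, ETR4 and ETR6), against 32.9% of all tested genes. Leaving out either library of 7 DAF removed most of these calls: at 49 DAF only ETR6 was then called, and it was also the only call without the HG6-61 library of 49 DAF.

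**Figure D3:**
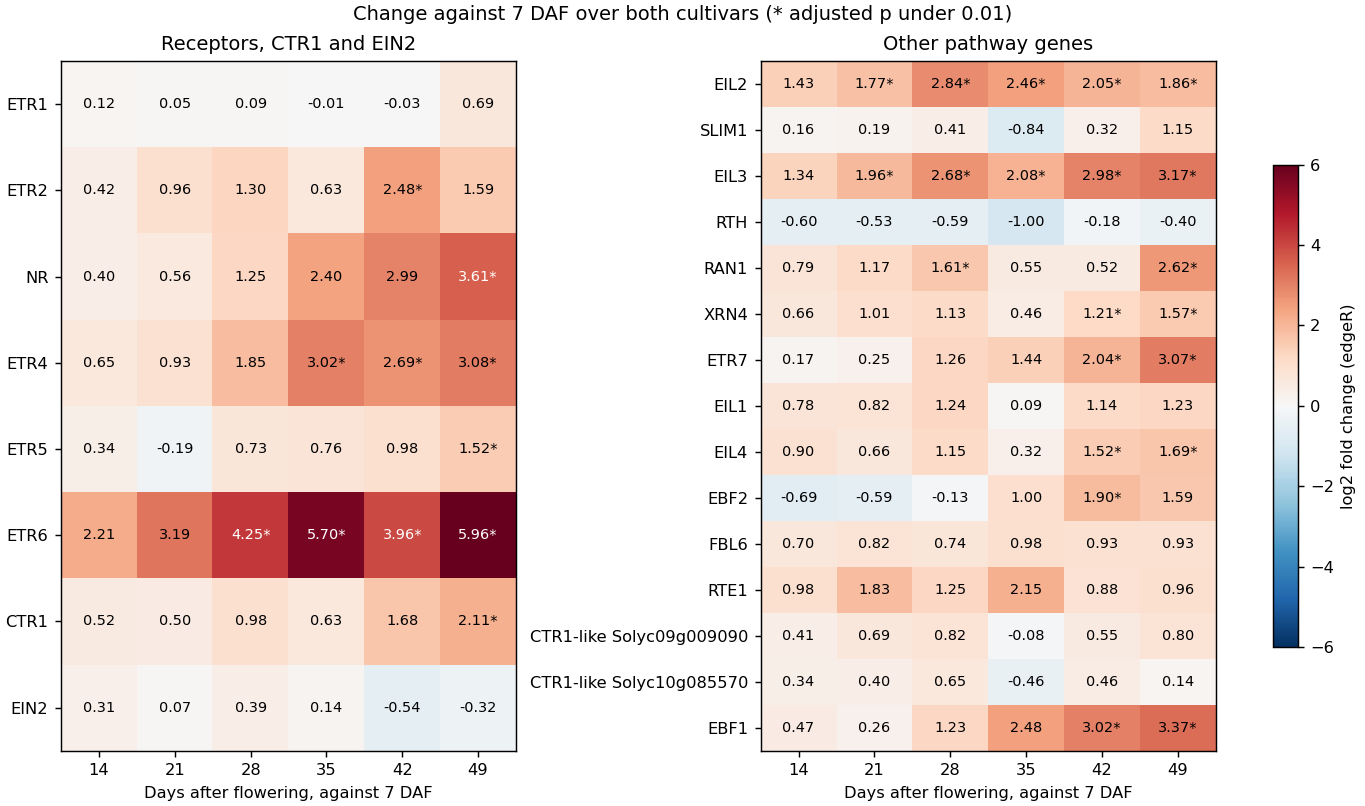
Log2 fold change against 7 DAF over both cultivars (numbers and colour, edgeR) by days after flowering, for the 8 tested genes at left and for the 15 tested genes of the rest of the pathway at right, with a star where the adjusted p was under 0.01. ETR6 reached 5.96 at 49 DAF and EBF1 3.37, while 10 of the 48 values at left (ETR1 at 14, 21, 35 and 42 DAF, CTR1 at 21 and 35 DAF, EIN2 at 14, 21, 35 and 49 DAF) and 16 of the 90 at right, all without a star, took another sign under at least 1 other setting.

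The other genes of the pathway were taken from a list of 24 loci by their closest Arabidopsis gene, of which 15 could be tested. Of these, 7 were called higher at 49 DAF against 7 DAF and 0 lower (edgeR's quasi-likelihood test), against 12.7% higher and 16.1% lower of all tested genes. The median log2 fold change of the 15 was 1.57, and that of all tested genes -0.18. The receptor locus ETR7 (Solyc05g055070, closest to Arabidopsis EIN4) rose by 3.07 ± 0.44, with 69.1 RPKM in HG6-61 and 63.5 in AC at 49 DAF against 10.2 in HG6-61 and 8.74 in AC at 7 DAF. Added to the 6 receptors, it took 9.12% of the sum of 7 in HG6-61 and 19.8% in AC at 49 DAF.

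Among the EIN3-like transcription factors, EIL2 (Solyc01g009170), EIL3 (Solyc01g096810) and EIL4 (Solyc06g073730) rose at 49 DAF by 1.86 ± 0.35, 3.17 ± 0.31 and 1.69 ± 0.36 on the log2 scale. EIL2 and EIL3 were called from 21 DAF on, although both calls at 21 DAF were lost without any 1 of the libraries of 7 or 21 DAF, and the earliest call of a receptor was that of ETR6 at 28 DAF. EIL2 was highest at 28 DAF in both cultivars, at 80.9 RPKM in HG6-61 and 96.4 in AC, whereas EIL3 was highest at 49 DAF in HG6-61 (123.0) and at 28 DAF in AC (98.5). EIL1 (Solyc06g073720) had 132.7 RPKM in HG6-61 and 52.1 in AC at 49 DAF and passed at no stage, and nor did the EIN3-like locus Solyc01g014480, closest to Arabidopsis EIL3 (SLIM1).

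EBF1 (Solyc12g009560) and EBF2 (Solyc07g008250) encode F-box proteins of the kind that marks EIN3 for breakdown in Arabidopsis. EBF1 rose at 49 DAF by 3.37 ± 0.66, with 168.0 RPKM in HG6-61 and 59.8 in AC against 15.1 in HG6-61 and 10.7 in AC at 7 DAF. It shared the timing of NR and ETR4, with its highest values at 49 DAF for HG6-61 and at 35 DAF for AC (83.9 RPKM). EBF2 was called at 42 DAF, with a log2 fold change of 1.90 ± 0.48, and lost that call without any 1 of 10 libraries. The third F-box locus of this kind, Solyc08g060810 (FBL6), passed at no stage, with 0.93 ± 0.34 at 49 DAF (adjusted p = 0.0443 in edgeR's quasi-likelihood test). RAN1 (Solyc02g068490), related to the Arabidopsis copper transporter that supplies the receptors, rose by 2.62 ± 0.29 at 49 DAF, and XRN4 (Solyc04g049010), related to the exoribonuclease EIN5, by 1.57 ± 0.28. The RTE1 relatives RTE1 (Solyc08g065320) and RTH (Solyc02g062420) and the CTR1-like kinases Solyc09g009090 and Solyc10g085570 passed at no stage. Of the 7 calls at 49 DAF, those of ETR7, EIL3 and RAN1 stood whichever library was left out. EIL2, EIL4, EBF1 and XRN4 lost theirs without either 7 DAF library, and EIL4 and EBF1 also without the HG6-61 library of 49 DAF.

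The next question was whether the cultivars differed. Over all stages, 0 of the 8 genes were called between HG6-61 and AC by edgeR's quasi-likelihood test, against 0.315% of all tested genes. At an unadjusted p under 0.05 there was 1 gene, ETR5, with a log2 ratio of 0.44 ± 0.20 (adjusted p = 0.317 in the same test) and more RPKM in HG6-61 at 6 of 7 stages, and DESeq2 called 0. A change of the ratio between the stages up to 28 DAF and those from 35 DAF on was called for 0 of the 8 genes and 0% of all tested genes. No gene of the 8 had an unadjusted p under 0.05 there, and DESeq2 called 0. The late group pools 35, 42 and 49 DAF, where the NR ratio was 0.0947, 1.97 and 2.84. Such a contrast averages opposite differences, so it cannot decide whether the timing differed.

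Stage by stage, however, the libraries stood far apart. At 35 DAF the ratio of HG6-61 to AC was 0.0947 for NR (95% counting interval 0.0724 to 0.122), 0.323 for ETR4 (0.290 to 0.359), 0.272 for ETR6 (0.196 to 0.370) and 0.410 for CTR1 (0.235 to 0.676). At 42 DAF these ratios were 1.97, 2.11, 2.15 and 1.82, and at 49 DAF 2.84, 2.95, 1.87 and 1.44, with every interval above 1. All 4 genes thus changed sides between 35 and 42 DAF. ETR1 differed little, with ratios between 0.777 and 1.35, and EIN2 was higher in HG6-61 at 6 of 7 stages, by 2.77 times at 49 DAF (2.28 to 3.37). These intervals compare single libraries and carry no test between cultivars.

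**Figure D4:**
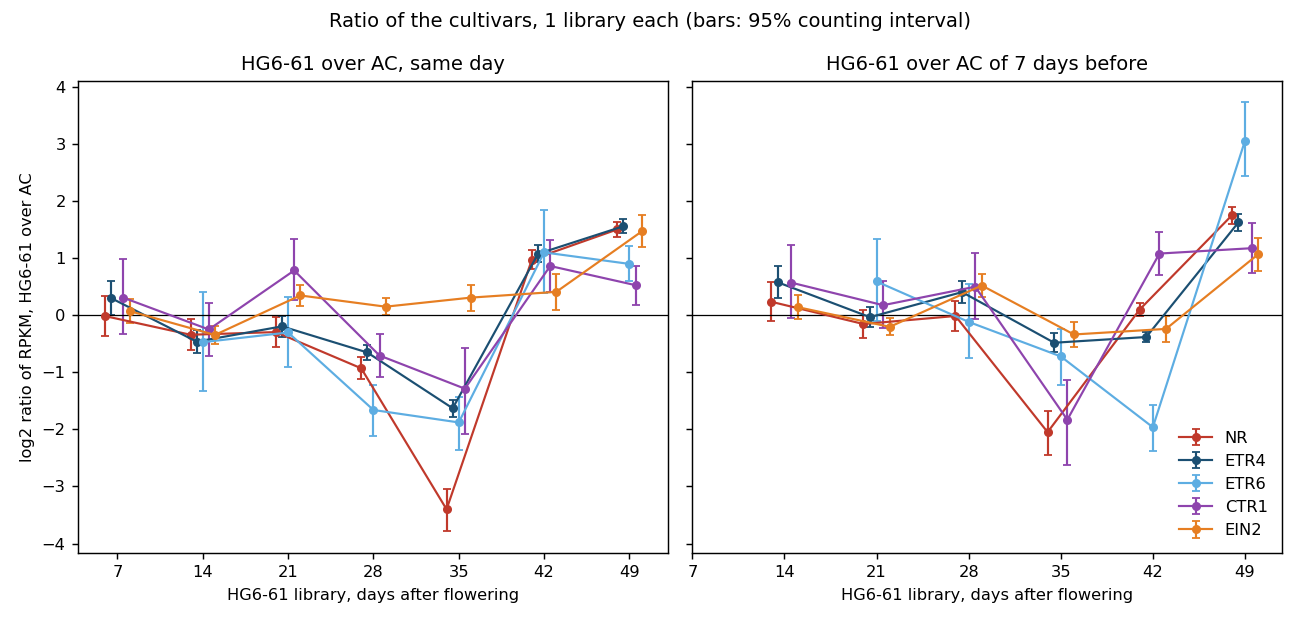
Log2 ratio of RPKM, HG6-61 over AC, by the day of the HG6-61 library, for libraries of the same day (left) and for HG6-61 against AC of 7 days before (right), with exact 95% counting intervals. ETR6 is left out where AC is at 7 DAF, since it had 1 read there. On the same day NR was lowest at 35 DAF (ratio 0.0947), and against AC of 7 days before its ratio at 42 DAF was 1.07.

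When each HG6-61 library was set against the AC library of 7 days before, the interval of the NR ratio included 1 at all but 2 steps. The ratio was 1.07 (0.991 to 1.16) for HG6-61 at 42 DAF over AC at 35 DAF, but 0.242 (0.184 to 0.313) for 35 over 28 DAF and 3.36 (3.02 to 3.74) for 49 over 42 DAF. The median absolute log2 ratio of NR was 0.19 with the lag and 0.93 without. For ETR4 the medians were 0.44 with the lag and 0.65 without.

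This median was also smaller with the lag for EIN2 (0.29 with, 0.35 without) and, by little, for ETR1 (0.34 with, 0.36 without), whose largest absolute log2 ratio was 0.78 with the lag and 0.43 without. It was larger with the lag for ETR2, ETR5, CTR1 and ETR6, but ETR6 turned to 0.72 with the lag and 1.0 without once the AC library of 7 DAF, with its 1 read, was left out. ETR2 peaked at 42 DAF in both cultivars, and HG6-61 at 42 DAF had 3.50 times the level of AC at 35 DAF (2.75 to 4.47), against 1.11 times that of AC at 42 DAF (0.892 to 1.39). HG6-61 at 49 DAF exceeded both AC at 49 DAF and AC at 42 DAF, with both intervals above 1, in 7 of the 8 genes, ETR2 being the exception. The smaller of the 2 ratios was 2.84 for NR, 2.95 for ETR4 and 2.51 for ETR5. The share of all genes that met this rule was not computed, so whether the count is particular to these genes is not known. The ratios also carry no TMM factor, which was 0.953 for HG6-61 at 49 DAF, 0.871 for AC at 49 DAF and 0.873 for AC at 42 DAF. For ETR1 at 49 DAF the lower limit was only 1.06. With the lag in the model, 0 of the 8 genes were called between the cultivars, against 0.0519% of 17335 tested genes, and the smallest adjusted p among them was 0.634, for ETR5 (edgeR's quasi-likelihood test).

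**Figure D5:**
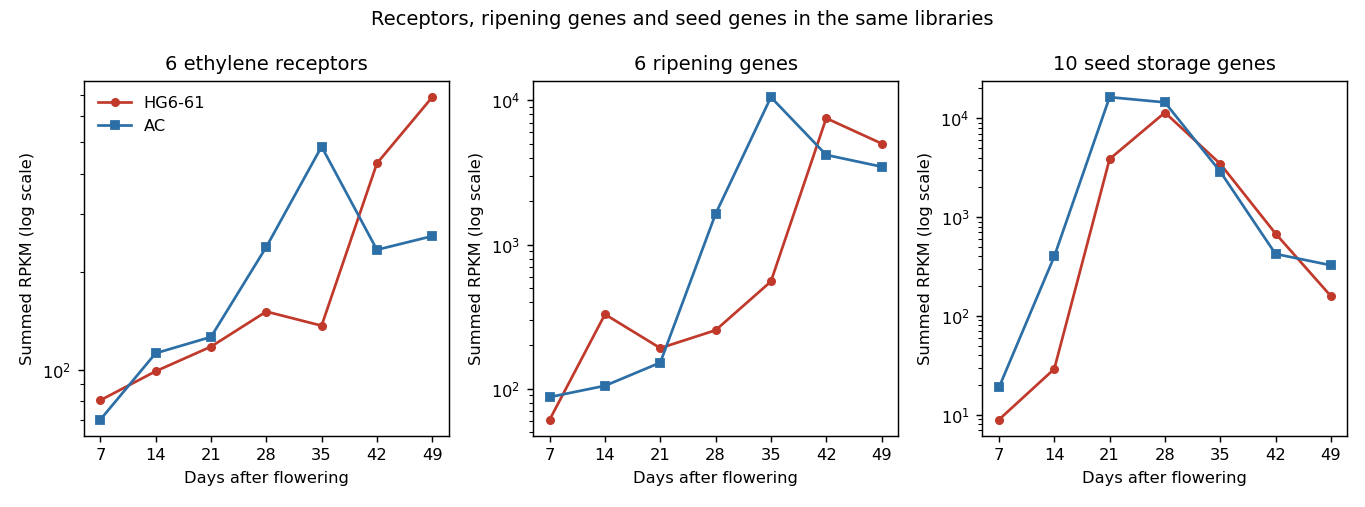
Summed RPKM (log scale) of the 6 receptors, of 6 ripening genes and of 10 seed storage genes by days after flowering, with HG6-61 as red circles and AC as blue squares, 1 library a point. The receptor sum at 35 DAF was 136.4 in HG6-61 and 484.7 in AC, beside ripening sums of 555 and 10522 in those libraries, and the seed genes were highest at 28 DAF in HG6-61 and at 21 DAF in AC.

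Over the 14 libraries, which share stages and cultivars, the genes most alike to NR by Pearson's r of log2(RPKM + 1) were Solyc03g063750 (r = 0.97), the carotenoid gene PSY1 (Solyc03g031860, r = 0.96) and MBD13 (Solyc03g025970, r = 0.95). For ETR4 they were Solyc03g063750 again (r = 0.94), Solyc05g008920 (r = 0.94) and the lipoxygenase gene LOX1 (Solyc01g099190, r = 0.94). For ETR6 the third most alike of all tested genes was ETR4 (r = 0.92). NR and ETR4 had r = 0.89 with each other, NR and CTR1 r = 0.87, and ETR2 and CTR1 r = 0.74.

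ETR1 and EIN2 had other companions. ETR1 was most like CIP1 (Solyc08g082010, r = 0.91) and EIN2 most like Solyc10g006890 (r = 0.97) and FRS6 (Solyc03g117520, r = 0.96). ETR2 was most like SIL1 (Solyc06g071680, r = 0.93), ETR5 most like Solyc08g081830 (r = 0.90), and CTR1 most like Solyc03g120140 (r = 0.96). Of the 24 genes listed in this way, 3 for each of the 8 genes, 18 were listed again with a pseudocount of 0.1 and 6 with Spearman's rank correlation.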

How the data were processed

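Per the study's methods, TopHat 2.0.4 placed the clean reads on genome build SL2.40 with at most 2 mismatches. Reads with several positions were dropped, which can lower genes with near-identical copies. Strand use is not given in the sources used here. The deposited counts are the authors' sums of remaining reads per gene, and the deposited RPKM values scale them by length and library size. RPKM has no composition factor, so RPKM ratios and edgeR fold changes differ. The TMM factor was 1.105 for AC at 7 DAF and 0.824 for AC at 35 DAF. By RPKM, ETR1 at 35 against 7 DAF was 0.738 times in HG6-61 and 0.802 times in AC. The edgeR fold of ETR1 over both cultivars was 0.992 there. Counts were tested with edgeR 4.0.16 (filterByExpr, TMM factors, quasi-likelihood F test, stage and cultivar in the model, Benjamini-Hochberg over 18082 genes, threshold 0.01) in R 4.3.3, and the steps were tested on simulated data. Single libraries carry exact Poisson intervals and ratios conditional binomial (Clopper-Pearson) intervals at 95%, which cover counting error only, since the reads have no molecular identifiers. A count of 0 was given the limit of 3 reads. The 9 genes were set by locus and not by their values, but they, the lists and the alternatives were set with earlier results of these data known. Named are the 9 genes, other pathway loci by Arabidopsis identifier or tomato locus, and the 3 genes most alike to each. Alternatives were other size factors, filters, thresholds, models and left-out libraries, DESeq2 1.42.0 and, added after seeing the data, library totals alone, both 35 DAF libraries left out, the settings for the other pathway genes, and ETR7 in the receptor sum. Gene sequences and coordinates of another assembly were not used here.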

Additional observations from a re-analysis of the deposited data

Results flagged for a closer look

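Between neighbouring stages, 4 genes had counting intervals on opposite sides of 1 in the 2 cultivars. These opposite moves compare single libraries, and the difference between the cultivars was not tested step by step. How many of all genes moved in this way was not computed, and the count is not read as particular to these 4. NR at 35 DAF stood at 0.461 times its level of 28 DAF in HG6-61 and at 2.55 times in AC. At 42 DAF NR was 11.3 times its level of 35 DAF in HG6-61 and 0.545 times in AC. ETR4 at 42 DAF was 2.38 times its level of 35 DAF in HG6-61 and 0.364 times in AC. EIN2 at 49 DAF was 1.58 times its level of 42 DAF in HG6-61 and 0.758 times in AC. At 21 DAF against 14 DAF EIN2 was 1.10 times in HG6-61 and 0.683 times in AC, and CTR1 was 1.34 times in HG6-61 and 0.656 times in AC. The HG6-61 library of 35 DAF was the smallest of the 14 and the one whose RPKM scale departed most from its gene counts (1.09 times). It also had the lowest share of uniquely mapped reads in coding sequence by the study's read overview. In this cultivar 5 of the 9 genes (ETR1, ETR2, NR, CTR1 and EIN2) had an interval below 1 for 35 against 28 DAF. The share of all genes with such an interval was not computed. These intervals carry no TMM factor, which was 1.07 at 28 DAF and 0.952 at 35 DAF in HG6-61, and the upper limit for ETR1 was 0.912.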

How the results depend on the processing

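With DESeq2 in place of edgeR, the genes called against 7 DAF were 1 at 21 DAF, 5 at 42 DAF and 6 in the joint test of all stages (main values 0, 3 and 3). At an adjusted p under 0.05 they were 1 at 21 DAF, 3 at 28 DAF, 5 at 42 DAF and 6 in the joint test. Without a filter on low counts, and also without both 35 DAF libraries, there were 5 at 42 DAF and 5 in the joint test. With at least 10 reads in every library, which removes ETR6, 0 were called at 28 DAF and 1 at 35 DAF. Library totals without TMM factors gave 1 in the joint test and a median log2 fold change of all genes at 49 DAF of -0.42 (main -0.18). Leaving out 1 library gave 0 to 1 calls at 28 DAF, 0 to 3 at 35 DAF, 0 to 5 at 42 DAF, 1 to 6 at 49 DAF and 1 to 5 in the joint test. The lowest counts came without a 7 DAF library of either cultivar, and at 28, 35, 42 and 49 DAF the AC library of 28 DAF, the AC library of 35 DAF, the HG6-61 library of 42 DAF and that of 49 DAF also mattered (0, 1, 1 and 1 calls). At 49 DAF 3 calls were left without either 21 DAF library, and at 42 DAF there were 5 without either 35 DAF library. The joint test had 1 call without either 14 DAF or either 21 DAF library, and 5 without either 35 DAF library or the AC library of 49 DAF.

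The directions between cultivars were weak. The log2 ratio of HG6-61 to AC turned for ETR4 (main -0.050) to 0.031 without stage in the model, 0.27 with the lag, 0.0090 without TMM and 0.21 without both 35 DAF libraries, for NR (main -0.31) to 0.13 without stage and 0.095 without both 35 DAF libraries, for ETR6 (main -0.37) to 0.39 with the lag, and for CTR1 (main 0.0038) to -0.027 with RLE size factors and -0.030 with DESeq2. Over single libraries left out it ranged from -0.31 to 0.23 for ETR4, from -0.13 to 0.24 for ETR2, from -0.62 to 0.11 for NR and from -0.14 to 0.20 for CTR1. EIN2 at 49 DAF ranged from -0.91 to 0.29. Of the 48 log2 fold changes of the 8 genes against 7 DAF, 10 took another sign under at least 1 of 23 settings, and none of the 11 called ones did. Of the 90 of the other pathway genes, run under the same settings after the data were seen, 16 did and none of the 21 called ones.

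With ETR7 in the receptor sum, the median share of NR and ETR4 in AC was 64.5% (main 75.0%). With Spearman's rho, 6 of the 24 most alike genes were shared with the main lists. The labels give no replicate numbers, so the cultivar served as the replicate block. Without this replicate block, 4 genes were called at 49 DAF, ETR5 being lost, and the other counts stood. The limit of the authors' methods, an adjusted p under 0.01 with a log2 fold change beyond 2, also lost ETR5 and left 4 at 49 DAF. Shares by coding length were not run, as no protein lengths were used here. The cause of these shifts was not tested.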
